A study of Homo sapiens with 3 samples.

Results

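The 10 genes described here set the cellular iron pool and were followed through the screen: the importers TFRC, SLC11A2 and SLC39A14, the ferritin subunits FTH1 and FTL, the ferritin receptor NCOA4, the exporter SLC40A1, the iron regulatory proteins IREB2 and ACO1, and the haem-degrading enzyme HMOX1. They were taken by gene symbol from both count tables and make up 10 of 18992 genes. Each gene is targeted by 6 sgRNAs, which gives 60 of the 119461 sgRNAs of the library. Huh-7 cells, an established line of human hepatoma, had been transduced with the GeCKOv2 library at a target MOI of 0.3, so that most transduced cells carry a single sgRNA directing Cas9 to its target. Transduction was in 8 µg/mL polybrene, and the cells were then kept for 3 days in 2 µg/mL puromycin and expanded in DMEM with 10% FCS. In 1 library the transduced cells received no RSL-3 and no linoleic acid (LA). The other libraries came from cells that survived repeated exposure for 24 h, either to 0.1 µM RSL-3 or to 0.03 µM RSL-3 with LA, for which the labels give 50 mM, a unit that is uncertain and cannot be checked in the files. Methods and figure legends differ in the number of rounds. These survivors are called RSL-3-selected and RSL-3/LA-selected cells here. LA is a polyunsaturated fatty acid, and RSL-3 blocks GPX4, which detoxifies peroxidised lipids.

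Iron enters most cells bound to transferrin, which TFRC carries into endosomes, and SLC11A2 (DMT1) then moves ferrous iron into the cytosol. SLC39A14 (ZIP14) is the main hepatocyte importer of iron that is not bound to transferrin. Ferritin, built from FTH1 and FTL, stores iron in a form that does not drive peroxidation, NCOA4 delivers ferritin to lysosomes where the iron is released again, and SLC40A1 (ferroportin) exports it. IREB2 and ACO1 stabilise the TFRC transcript and block ferritin translation when iron is low, and HMOX1 frees iron from haem. Because ferroptosis needs redox-active iron, loss of TFRC, SLC11A2, SLC39A14, NCOA4, IREB2, ACO1 or HMOX1 would be expected to lower the pool and favour survival, and loss of FTH1, FTL or SLC40A1 to raise it and disfavour survival. HMOX1 is the least clear case, since its products also include antioxidants.

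Untreated cells gave 1466896 counts, RSL-3-selected cells 1467705 and RSL-3/LA-selected cells 1485991. Where libraries are compared, counts were scaled to these totals (CPM, where a whole library is 1000000). At this depth 1 count is 0.673 to 0.682 CPM, and an sgRNA with no count may still hold 0.000202% to 0.000205% of a library (3 counts). This limit and the exact 95% intervals below cover counting error only, because reads after PCR do not stand for separate molecules. A few sgRNAs dominated after selection: the top 10 took 64.7% of the RSL-3-selected library and 18.1% of the RSL-3/LA-selected one. Each condition has 1 library, so no difference below has a replicate check and none was tested. For a call of enrichment an sgRNA had to reach 100 CPM after selection and 10 times its untreated CPM, with untreated counts under 3 set to 3. It was called lost at 10 or more untreated counts and 0 in survivors. The sequences and genomic positions of the sgRNAs were not used here.

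The iron genes were sparsely represented before selection. Of their 60 sgRNAs 9 had a count in untreated cells, or 15.0%, against 16.0% of all sgRNAs. The mean untreated count per sgRNA was 11.2 for the iron genes and 12.3 over the library. FTH1 and SLC39A14 each had 3 counted sgRNAs, TFRC, FTL and IREB2 had 1 each, and the other 5 genes had none. Of the 30 sgRNAs in sub-library A, 4 were counted, and of the 30 in sub-library B, 5. In these sub-libraries 17.2% and 14.7% of all gene-targeting sgRNAs had an untreated count. For 4 of the 10 genes, NCOA4, SLC40A1, ACO1 and HMOX1, all 6 sgRNAs had 0 counts in every library. The same held for 26.4% of the 18040 genes with 6 sgRNAs. For these 4 genes the screen therefore holds no measurement of an effect in either direction. In all, 12 of the 60 sgRNAs had a count in any library, and none of them had one in more than 1 library. Over the whole library, 9.30% of the 24578 sgRNAs with a count had one in 2 or more libraries.

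**Figure D1:**
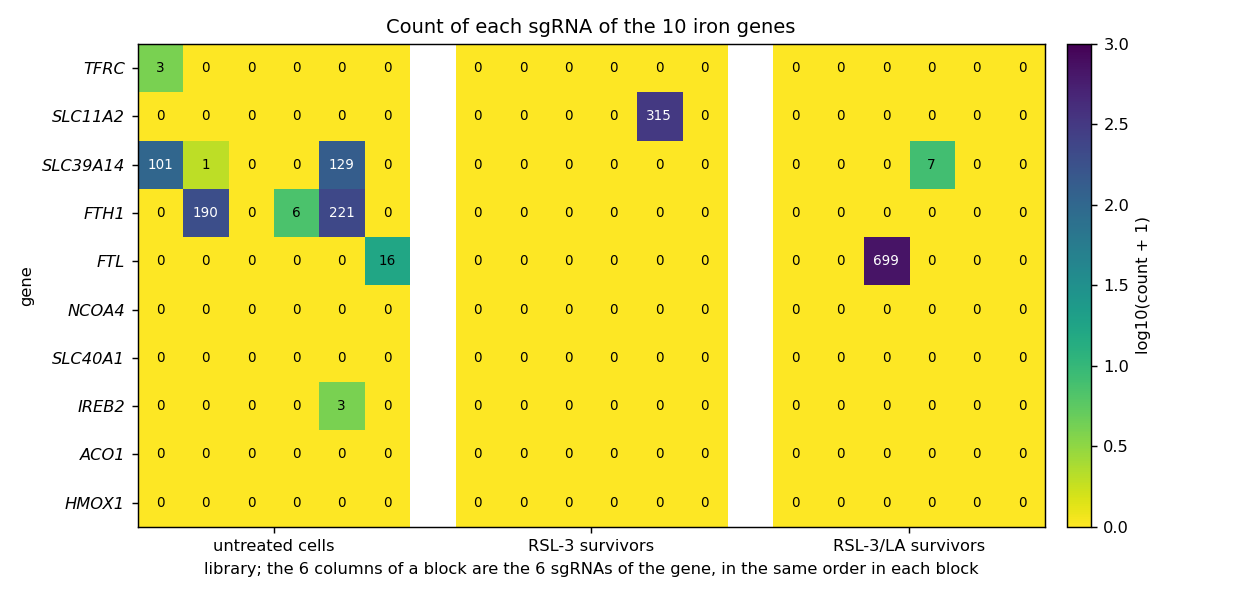
Count of each of the 60 sgRNAs, with genes in rows, the 6 sgRNAs of a gene in columns and 1 block per library. Colour gives log10(count + 1), and the printed number is the count. Counts lie at 9 sgRNAs in untreated cells, 1 in RSL-3-selected cells and 2 in RSL-3/LA-selected cells, and no sgRNA has a count in more than 1 block.

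Among the importers, SLC11A2 alone had an enriched sgRNA, and only in RSL-3-selected cells. HGLibB_44301 had 0 untreated counts, 315 in RSL-3-selected cells and 0 in RSL-3/LA-selected cells. At 214.6 CPM it stood at least 105-fold above the limit of 3 untreated counts and held 0.0215% of the library (95% interval 0.0192 to 0.0240). The remaining 5 SLC11A2 sgRNAs had 0 counts in every library. HGLibB_44301 was number 324 by count of the 2938 sgRNAs counted in RSL-3-selected cells and number 290 of the 500 enriched ones, whose median was 373 counts. Over the whole library 16.0% of sgRNAs had an untreated count. Like HGLibB_44301, 408 of the 500 enriched sgRNAs (81.6%) had 0 untreated counts, and 216 of these were at or above 315 counts. Its growth from a measured starting level can therefore not be given. Over all 6 sgRNAs the targets closest to SLC11A2, by distance of log2(CPM + 1) over the 3 libraries, included C15orf27 and DMRT3, with 319 and 309 counts in RSL-3-selected cells and 0 elsewhere. In all, 100 targets lay within a distance of 1.

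SLC39A14 was the best represented importer in untreated cells, and its counted sgRNAs did not persist. HGLibA_45102 had 101 counts, HGLibB_45050 had 129 and HGLibA_45103 had 1 in untreated cells, and all 3 had 0 in both survivor libraries. Of all sgRNAs with an untreated count, 96.1% were likewise at 0 after RSL-3 and 93.7% after RSL-3/LA, so the loss is not particular to SLC39A14. The larger of these, HGLibB_45050, stood above 77.8% of the counted sgRNAs of untreated cells. Against the limit of 3 survivor counts it was at least 43.0-fold lower in RSL-3-selected cells and at least 43.6-fold lower in RSL-3/LA-selected cells. Another sgRNA of the gene, HGLibB_45049, had 0 counts in untreated cells and in RSL-3-selected cells and 7 counts, or 4.71 CPM, in RSL-3/LA-selected cells, far below the threshold of 100 CPM. Summed over the gene, 231 untreated counts compared with 0 in RSL-3-selected cells and 7 in RSL-3/LA-selected cells, a ratio of CPM of 0.0299 (95% interval 0.0119 to 0.0626). TFRC had 3 counts in HGLibA_49195 in untreated cells and 0 in all other values. A gene that starts at 3 counts cannot show a decrease at this depth, so of the importer that most proliferating cells rely on only the lack of enrichment can be stated.

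The ferritin subunits differed in their untreated counts and, after RSL-3/LA, by 1 FTL sgRNA that had 0 untreated counts. Both were at 0 in RSL-3-selected cells. FTH1, which carries the ferroxidase activity of ferritin, was among the most abundant targets of untreated cells, with 417 counts, above 99.2% of the genes with 6 sgRNAs. HGLibB_18092 had 221 counts, HGLibA_18116 had 190 and HGLibB_18091 had 6 in untreated cells, and all 6 FTH1 sgRNAs had 0 counts in RSL-3-selected cells and in RSL-3/LA-selected cells. The share of FTH1 was 0.0284% of untreated counts (95% interval 0.0258 to 0.0313). In survivors it was at least 139-fold lower after RSL-3 and at least 141-fold lower after RSL-3/LA, both against 3 survivor counts. This is the direction expected from the loss of iron storage, but 96.1% of all 15047 sgRNAs with 10 or more untreated counts were lost from RSL-3-selected cells and 93.7% from RSL-3/LA-selected cells. Such a loss was thus shared by most sgRNAs, whatever their target.

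FTL, the subunit that promotes mineralisation of the core, had the largest count of the 10 genes after selection. HGLibA_18126 had 0 untreated counts, 0 in RSL-3-selected cells and 699 in RSL-3/LA-selected cells. At 470.4 CPM it stood at least 230.0-fold above 3 untreated counts and held 0.0470% of the RSL-3/LA library (95% interval 0.0436 to 0.0507). It was number 381 of the 4970 sgRNAs counted there and number 357 of the 1428 enriched ones, whose median was 384 counts. Of the enriched sgRNAs 1241 (86.9%) had 0 untreated counts, as did HGLibA_18126. Over the whole library 16.0% of sgRNAs had an untreated count, so 0 untreated counts was usual. A second FTL sgRNA, HGLibB_18102, showed the opposite, with 16 untreated counts and 0 after either selection, at least 5.34-fold lower after RSL-3 and at least 5.40-fold lower after RSL-3/LA. The other 4 FTL sgRNAs had no count. Over the gene, the ratio of CPM in RSL-3/LA-selected cells was 43.1 (26.4 to 75.9), which rests on HGLibA_18126 alone. Its direction is contrary to that expected from a larger iron pool. The targets closest to FTL over the 3 libraries were COL6A5 (15, 0 and 710 counts in untreated cells, RSL-3-selected cells and RSL-3/LA-selected cells), MRAS (14, 0 and 623) and ZDHHC2 (15, 0 and 548), and 32 targets lay within a distance of 1. The RefSeq gene list of GRCh38.p14 holds 27 pseudogenes named after FTH1 and 20 named after FTL. Whether sgRNAs of the ferritin genes also match such copies was not tested.

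Of the genes that release, export or sense iron, IREB2 alone was counted. HGLibB_23535 of IREB2 had 3 untreated counts, 0 in RSL-3-selected cells and 0 in RSL-3/LA-selected cells, and the other 5 sgRNAs had none. NCOA4, SLC40A1, ACO1 and HMOX1 were at 0 throughout, as given above. For each of them, all sgRNAs together could have held up to 0.000205% of the untreated library without being seen.

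**Figure D2:**
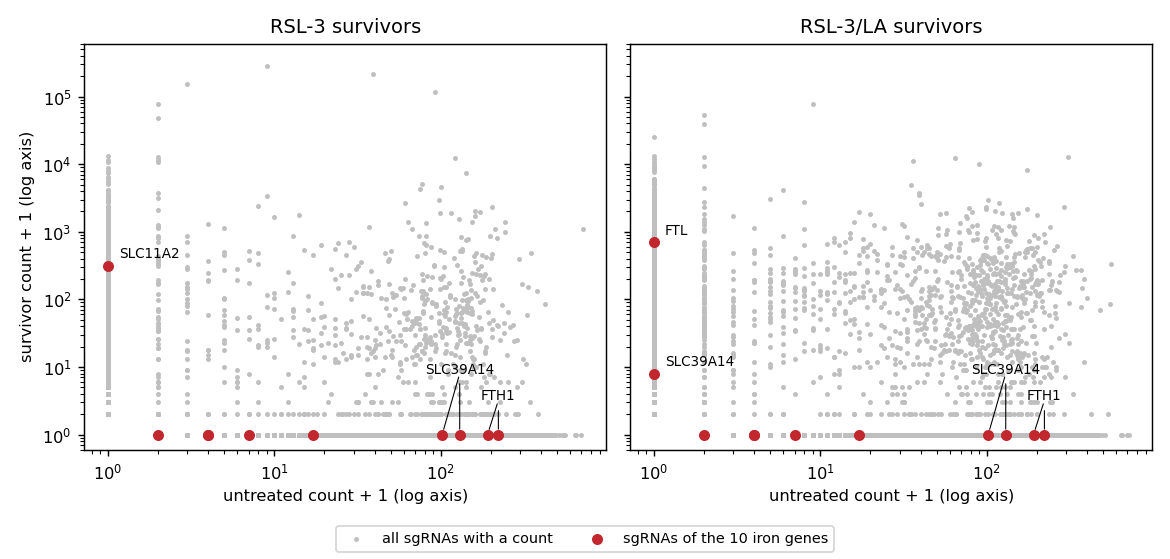
Survivor count + 1 against untreated count + 1 on log axes, for RSL-3 (left) and RSL-3/LA (right), with a grey point for each sgRNA counted in either library and red points for the iron genes. SLC11A2 (315 counts) and FTL (699 counts) lie among the many sgRNAs with 0 untreated counts, while the sgRNAs of SLC39A14 (101 and 129) and FTH1 (190 and 221) lie on the line of 0 survivor counts. TFRC and IREB2, with 3 untreated counts each, share a point.

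Set against the library, the iron genes were called at rates that a single sgRNA decides. In RSL-3-selected cells 1 of 60 sgRNAs was enriched, or 1.67%, against 0.419% of all sgRNAs and 1.10% of the 1000 non-targeting sgRNAs. In RSL-3/LA-selected cells it was again 1 of 60, against 1.20% of all sgRNAs and 2.90% of the non-targeting ones. With 1 sgRNA fewer the value would be 0%, and with 1 more 3.33%, values on both sides of each of these backgrounds. Non-targeting sgRNAs were better represented before selection and are not a like background. Of the 1000, 290 had an untreated count, and their mean untreated count was 21.3, against 12.3 over the library. By gene, 1 of 10 had an enriched sgRNA in each survivor library, against 2.44% of all genes in RSL-3-selected cells and 6.72% in RSL-3/LA-selected cells. No iron gene had 2 enriched sgRNAs. Both screens are set against the same untreated library. Single support was usual, since 457 of the 463 genes with an enriched sgRNA in RSL-3-selected cells and 1232 of the 1277 in RSL-3/LA-selected cells had exactly 1. All 5 sgRNAs of the iron genes with 10 or more untreated counts, 2 of SLC39A14, 2 of FTH1 and 1 of FTL, were lost from both survivor libraries, close to the 96.1% and 93.7% given above. Including those with fewer counts, all 9 counted sgRNAs were at 0 in both, as were 96.1% (RSL-3) and 93.7% (RSL-3/LA) of the 19153 sgRNAs with any untreated count. The median log2 change in CPM from untreated to selected cells, after adding 1 CPM to both values, was 0 over the 60 sgRNAs and 0 over the whole library in both screens, since most sgRNAs had no count. Among the 9 with an untreated count it was -3.57 in each screen, against -5.34 (RSL-3) and -5.27 (RSL-3/LA) over all counted sgRNAs. At 0 survivor counts this value reflects the untreated count only.

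**Figure D3:**
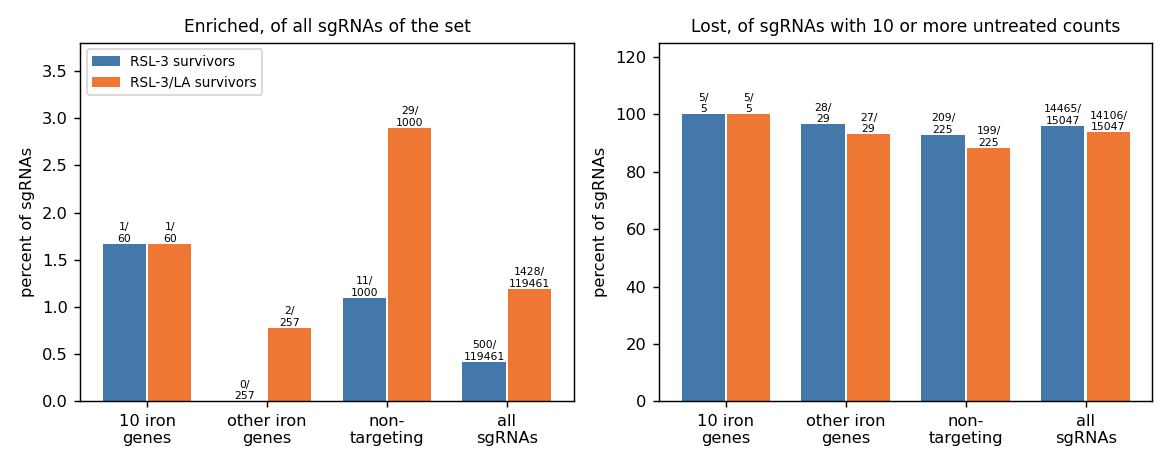
Percent of sgRNAs called enriched (left) and, among those with 10 or more untreated counts, lost (right), for the 10 iron genes, 43 other iron genes, non-targeting sgRNAs and all sgRNAs, with 1 bar per survivor library and the counts behind each percentage printed above it. The iron genes' bars for enrichment stand for 1 sgRNA of 60 each, and losses lie between 88.4% and 100% in every set.

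By the direction expected from the iron pool, the classes gave no common pattern. The 7 genes whose loss would lower the pool held 237 untreated counts, 315 in RSL-3-selected cells and 7 in RSL-3/LA-selected cells. The ratio of CPM was 1.33 (95% interval 1.12 to 1.58) after RSL-3 and 0.0292 (0.0116 to 0.0610) after RSL-3/LA. The 3 genes whose loss would raise the pool held 433, 0 and 699 counts, which was at least 144-fold lower after RSL-3 and a ratio of 1.59 (1.41 to 1.80) after RSL-3/LA. By summed counts the classes thus stood in the expected order after RSL-3 and in the reverse order after RSL-3/LA, but the reverse order turned when the log2 ratios were averaged over sgRNAs instead. These means were -0.21 for the first class and -1.12 for the second after RSL-3, and -0.33 and -0.63 after RSL-3/LA. By this measure neither class was above its untreated level, and all 4 medians over sgRNAs were 0. Every sgRNA with an untreated count was at 0 in both survivor libraries. The negative terms of the means therefore reflect untreated counts only, and the order of the means cannot show an effect of selection on them. Scaled to the summed non-targeting sgRNAs instead of the totals, the summed second class turned to a log2 ratio of -0.13 after RSL-3/LA, and the other directions of the sums held. Each class sum above its untreated level rests on 1 sgRNA, which was checked after the data were seen. Without the enriched sgRNA of SLC11A2 the first class was at least 79.0-fold lower after RSL-3. Without that of FTL the second was at least 146-fold lower after RSL-3/LA, so that no class exceeded its untreated level. After RSL-3 the expected order then remained, at log2 ratios of -7.34 and -8.21. With 0 survivor counts in both classes, that order reflects untreated counts only. After RSL-3/LA the order turned, with -4.83 for the first class and -8.21 for the second. The survivor counts behind it are the 7 of HGLibB_45049 of SLC39A14, which had 0 untreated counts, and 0 in the second class. That order reflects these 7 counts and the untreated counts only. Of the 42 sgRNAs of the first class 1 (2.38%) was enriched in RSL-3-selected cells and 0 in RSL-3/LA-selected cells. Of the 18 of the second, 0 were enriched after RSL-3 and 1 (5.56%) after RSL-3/LA. Over all sgRNAs the shares were 0.419% and 1.20%. Each class share above 0% stands for 1 sgRNA, so these shares show no pattern by class. Together the 10 genes held 0.0457% of the counts of untreated cells (0.0423 to 0.0493), 0.0215% of those of RSL-3-selected cells and 0.0475% of those of RSL-3/LA-selected cells (0.0441 to 0.0511). The lower share after RSL-3 depends on the denominator: with the 10 most abundant sgRNAs of each library left out of it, the share was 0.0459% in untreated cells, 0.0608% after RSL-3 and 0.0580% after RSL-3/LA.

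**Figure D4:**
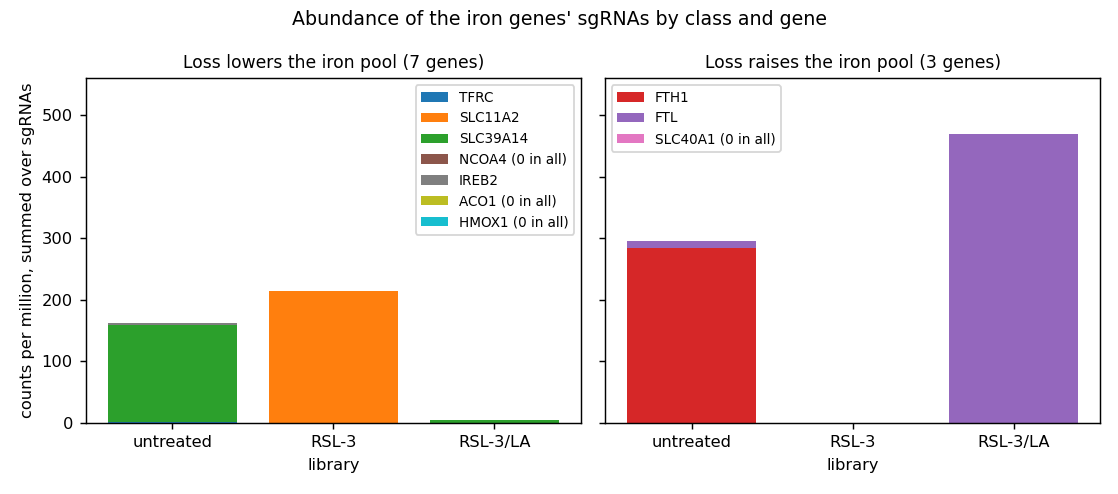
CPM summed over the sgRNAs of each gene, stacked by gene, for the 7 genes whose loss would lower the iron pool (left) and the 3 whose loss would raise it (right), in the 3 libraries. On the left SLC39A14 makes up most of the untreated bar and SLC11A2 the whole bar of RSL-3-selected cells. On the right FTH1 makes up most of the untreated bar, RSL-3-selected cells are at 0, and FTL makes up the whole bar of RSL-3/LA-selected cells at 470.4 CPM.

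A wider list of 43 other iron genes with 257 sgRNAs showed the same sparseness. In untreated cells 40 of these sgRNAs had a count, where 16.0% of all sgRNAs did. In RSL-3-selected cells 0 were enriched, where 0.419% of all sgRNAs were. In RSL-3/LA-selected cells 2 (0.778%) were enriched, where 1.20% of all sgRNAs were. At these numbers a single sgRNA moves each share, and no test was run on them. The 2 sgRNAs target different genes of mitochondrial iron and Fe-S cluster supply, and roles were not compared on single sgRNAs. HGLibB_44641 of SLC25A28, the mitochondrial iron importer mitoferrin 2, had 0 untreated counts, 2 in RSL-3-selected cells and 495 in RSL-3/LA-selected cells, at least 163-fold above 3 untreated counts. HGLibB_19297 of GLRX5, a glutaredoxin of Fe-S cluster assembly, had 0, 0 and 359 counts, at least 118-fold above that limit. Another GLRX5 sgRNA, HGLibB_19296, had 31 untreated counts and 0 after either selection. A further one, HGLibA_19321, had 0, 0 and 12 counts, or 8.08 CPM in RSL-3/LA-selected cells, below the threshold of 100 CPM. Among 9 other uptake genes, 4 of storage and ferritin turnover, 3 of export, 9 of haem handling and 7 of hepcidin control, and for FBXL5, which targets IREB2 for degradation, no sgRNA was enriched in either screen. Of 29 sgRNAs of the wider list with 10 or more untreated counts, 28 (96.6%) were lost from RSL-3-selected cells and 27 (93.1%) from RSL-3/LA-selected cells. These shares were close to the 96.1% and 93.7% of all such sgRNAs.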

How the data were processed

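Integrated sgRNA cassettes were amplified by the authors by PCR on genomic DNA and read on a MiSeq. Reads were processed with MAGeCK (also named in the submitters' processing notes), version 0.5.4 in the reporting summary; trimming and matching settings are not given in the sources used here. The authors deposited raw counts per sgRNA in 2 tables, whose untreated columns were identical and were used as 1 library. The deposited summaries per target hold the authors' own scores, p-values and ranks and were not used. All sgRNAs of the 10 genes, 6 each, were kept, with no filter on low counts. CPM were scaled to library totals of 1466896 to 1485991. Ratios of CPM were given exact 95% intervals by conditioning on the sum of both counts (binomial), shares a Clopper-Pearson interval, and values against 0 counts are bounds at 3 counts. Lists use log2 ratios with 1 CPM added. With 1 library per condition, conditions were compared without a test. The calls were also run on simulated counts drawn from the untreated profile, without the broad loss seen after selection. That simulation scored only sgRNAs well counted in untreated cells. It therefore does not cover the enriched sgRNAs of SLC11A2 and FTL, which had 0 untreated counts. The members and lists were chosen with earlier results of these data known, direction classes by the genes' textbook roles. The text names all members, genes of the wider list with an enriched sgRNA, and the 3 targets closest to each member with an enriched sgRNA, of which 1 is not reported here, and others are marked as named after their values were seen. Thresholds, scalings, pseudocounts and summaries per gene were varied. Python 3.11.15, numpy 2.4.6, pandas 2.3.3, scipy 1.17.1 and matplotlib 3.10.9 were used.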

Additional observations from a re-analysis of the deposited data

Results flagged for a closer look

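For 3 results, on summed counts, the direction against untreated cells was opposite in the 2 survivor libraries, each of which is a single library, and the difference was not tested. All are log2 ratios of CPM with 1 CPM added. FTL stood at -3.57 in RSL-3-selected cells, from 16 counts to 0, and at 5.31 in RSL-3/LA-selected cells, with 699 counts in an sgRNA that had none in untreated cells. As the mean over its 6 sgRNAs FTL stood at -0.60 and 0.88, and as the median at 0 in both. The 7 genes whose loss would lower the iron pool stood at 0.41 in RSL-3-selected cells and at -4.83 in RSL-3/LA-selected cells, and the first value rests on the sgRNA of SLC11A2 with 315 counts. The 3 genes whose loss would raise the pool stood at -8.21 and at 0.67, and the second value rests on the same FTL sgRNA. As means over sgRNAs both classes were below 0 in both libraries, at -0.21 and -0.33 for the first and at -1.12 and -0.63 for the second. The negative terms of these means come from sgRNAs at 0 after selection and reflect untreated counts only.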

How the results depend on the processing

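The 1 enriched sgRNA of each screen was called under thresholds of 50 CPM, 4-fold or 30-fold, a floor of 1 untreated count and both other scalings, while 1000 CPM, or a restriction to sgRNAs with an untreated count, left 0 in either screen. The 5 lost sgRNAs of each screen became 6 at a minimum of 5 untreated counts, 4 at 30, and stayed 5 where up to 10% of the untreated CPM was allowed. Without the most abundant sgRNA of each gene the 10 genes held 0.0203% of untreated counts and 0% of either survivor library; without the 10 most abundant sgRNAs in the denominator their share was 0.0459% in untreated cells, 0.0608% after RSL-3 and 0.0580% after RSL-3/LA, so that the fall after RSL-3 turned into a rise. The remaining values are log2 ratios. The class whose loss would lower the pool moved in RSL-3-selected cells to -0.21 as the mean over sgRNAs, 0 as the median, 0.93 scaled to non-targeting sgRNAs, 1.90 scaled without the 10 most abundant sgRNAs and -7.34 without its enriched sgRNA, an alternative added after the data were seen. In RSL-3/LA-selected cells it moved to -0.33 (mean), 0 (median) and -3.54 (10 CPM added). The class whose loss would raise the pool moved in RSL-3-selected cells to -1.12 (mean), 0 (median) and -4.93 (10 CPM added), and in RSL-3/LA-selected cells to -0.63 (mean), 0 (median), -0.13 scaled to non-targeting sgRNAs, 0.95 scaled without the 10 most abundant sgRNAs and -8.21 without its enriched sgRNA, again added later. The order of the classes after RSL-3/LA turned with the mean. For FTL after RSL-3/LA, 5.31 became 0.88 (mean), 0 (median), 4.52 (10 CPM added) and 4.51 (scaled to non-targeting sgRNAs), and after RSL-3, -3.57 became -0.60, 0 and -1.06 under the first 3 of these. Leaving out HMOX1, which had no counts, changed nothing. The single sgRNA behind each value, and the few sgRNAs counted in untreated cells, limit every statement. No paired analysis was possible because there was a single library per condition, which also means that none could be left out.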

Other observations

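In the wider iron list 2 sgRNAs with 10 or more untreated counts also had a count after selection. They and TFR2 are named here after their values were seen. HGLibA_49114 of TF, the plasma transferrin that hepatocytes secrete, had 150 untreated counts. It kept 137 counts in RSL-3-selected cells, or 0.913 times its untreated CPM (95% interval 0.719 to 1.16), and 26 in RSL-3/LA-selected cells, or 0.171 times (0.108 to 0.261). The interval of the first ratio includes 1. Of sgRNAs with 10 or more untreated counts, 96.6% of the wider list and 96.1% of all were lost from RSL-3-selected cells. After RSL-3/LA the shares were 93.1% and 93.7%. The share of the list that persisted was thus close to that of the whole library. The ratio depends on scaling to totals, since the top 10 sgRNAs took 64.7% of the RSL-3-selected library. Other scalings were not applied to TF. None of the remaining TF sgRNAs, of 6 in all, had a count in any library. HGLibA_21751 of HMOX2, the constitutive haem oxygenase, had 27 untreated counts, 0 in RSL-3-selected cells and 143 in RSL-3/LA-selected cells. At 96.2 CPM and a ratio of 5.23 (3.45 to 8.21) it met neither condition for enrichment, 100 CPM and 10 times its untreated CPM. The other HMOX2 sgRNA with an untreated count, HGLibB_21722, had 64 counts there and 0 in both survivor libraries. TFR2, a sensor of iron-loaded transferrin in hepatocytes, had an sgRNA at 0, 0 and 135 counts, or 90.8 CPM in RSL-3/LA-selected cells. Another TFR2 sgRNA, HGLibA_49194, went the other way, with 40 untreated counts and 0 in both survivor libraries.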
